A study of Mus musculus with 72 samples.

Results

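Fatty acid oxidation is how a cell draws energy from stored fat, and the genes described here are 32 that encode this pathway or answer to its transcription factor PPAR alpha. They were chosen by name as a gene list, from the regulator Ppara through the carnitine shuttle, the mitochondrial and peroxisomal enzymes and the acyl-CoA thioesterases to the lipid droplet coats Plin2 and Plin5. All 32 were found among the 55416 genes counted. RNA was sequenced from the epididymal white fat (eWAT), liver and pituitary of 24 male mice on an FVB.129P2 background, which gave 72 libraries. FED mice were the offspring of dams fed ad libitum. CR20 mice were the offspring of dams whose food was cut by 20% from late gestation until weaning. From 8 weeks of age the offspring ate a control diet with 10% of its calories from fat (CTRL) or a high fat diet with 45% (HFD). The groups FED-CTRL, FED-HFD, CR20-CTRL and CR20-HFD each held 6 mice, and the same 24 mice gave all 3 tissues. The labels leave the length of the feeding open. They do not say how many litters the mice came from, so the p-values measure the spread between these mice.

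Long-chain fatty acids are joined to coenzyme A, passed into mitochondria by the carnitine shuttle, and shortened by repeated turns of dehydrogenation, hydration, oxidation and thiolysis, with the electrons handed on through the electron transfer flavoprotein. Peroxisomes and the omega-oxidising Cyp4a enzymes take up further fatty acids. PPAR alpha is a nuclear receptor bound by fatty acids that binds DNA with RXR, and many of these genes are textbook targets of it in liver, where the pathway is known for fuelling the fasted state. In fat, droplet coats and droplet turnover are also tied to the related receptor PPAR gamma.

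The libraries held 9842813 to 27601208 counts. Markers of the labelled tissue dominated each one, with summed hepatocyte markers of 65750 to 111004 CPM (counts scaled to library size) in liver and adipocyte markers of 9143 to 34268 CPM in eWAT. In 5 eWAT libraries, markers of hepatocytes or of epididymis and testis were raised (FED-HFD mice 10 and 13, CR20-CTRL mice 4 and 5, CR20-HFD mouse 6). For members with full statistics, values that rest on these libraries are given with and without them. In bulk tissue, fewer cells of a type and less RNA per cell cannot be told apart.

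PPAR alpha binds a direct repeat of AGGTCA with 1 base between the copies, written AGGTCANAGGTCA. The 250 bases before each gene start in the RefSeq promoter table of GRCm38.p6 were searched on both strands for the stretch closest to this element. Of the 32 genes, 26 had an entry. The element with at most 2 mismatches was present in 3 of their 30 promoters (10%), compared with 1063 of all 32851 (3.24%). A single exact AGGTCA on either strand was present in 6 member promoters (20%), compared with 14% of all promoters. The stretches nearest to the element are shown for the 3 genes with at most 2 mismatches (Plin2, Etfa and Acot4). They are also shown for Cpt1a, Acadm and Eci2, which changed in the comparisons below. Acot1 (4 mismatches) and Acot2 (3 mismatches) also changed in a comparison below and are not shown. Capitals mark the 13 bases aligned to the element, and each window is written 5′ to 3′ along the strand of its gene. In Cpt1a the capitals align to the element as written. In Plin2, Etfa, Acot4, Acadm and Eci2 they align to its reverse complement, and mismatches were counted against that.
Plin2, chr4:86670252-86670304, minus strand, 2 mismatches: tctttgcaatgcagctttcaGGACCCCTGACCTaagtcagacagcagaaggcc
Etfa, chr9:55512288-55512340, minus strand, 2 mismatches: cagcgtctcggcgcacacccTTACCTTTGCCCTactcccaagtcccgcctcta
Acot4, chr12:84038346-84038378, plus strand, 2 mismatches: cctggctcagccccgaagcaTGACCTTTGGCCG
Acadm, chr3:153944860-153944893, minus strand, 3 mismatches: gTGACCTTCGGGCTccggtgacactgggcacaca
Cpt1a, chr19:3323135-3323187, plus strand, 4 mismatches: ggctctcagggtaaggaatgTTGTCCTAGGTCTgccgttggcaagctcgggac
Eci2, chr13:34994328-34994380, minus strand, 4 mismatches: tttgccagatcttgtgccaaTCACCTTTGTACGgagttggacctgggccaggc
The stretch in Plin2 began 225 bases before the start, that in Etfa 77 bases and that in Acot4 13 bases before it. These are matches of letters in a short window, and binding was not measured.

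Levels between genes were compared as RPKM, reads scaled to the length of the canonical transcript and to the library's total. The median RPKM over 24 mice was highest in liver for 25 of the 32 genes, in eWAT for 6 and in the pituitary for 1. In liver the highest levels were those of the thiolases Acaa2 (690 RPKM) and peroxisomal Acaa1b (641 RPKM), which carry out the last cut of each turn. Hadh, the hydroxyacyl-CoA dehydrogenase, followed at 234 RPKM. Eci2, an isomerase that prepares unsaturated fatty acids for the spiral, reached 175 RPKM in liver, compared with 67.0 in eWAT and 51.1 in the pituitary. Bdh1, which makes the ketone body beta-hydroxybutyrate, was at 133 RPKM in liver, 0.202 in eWAT and 5.54 in the pituitary.

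The 6 genes with their highest median in eWAT were Plin2 (319 RPKM), Acsl1 (264 RPKM), Acadm (200 RPKM), Hadhb (128 RPKM), Decr1 (84.9 RPKM) and Acot2 (5.73 RPKM). Plin2 coats lipid droplets, and Acsl1 activates long-chain fatty acids. Decr1 was nearly as high in liver (84.7 RPKM) and lower in the pituitary (10.5 RPKM). The pituitary held the highest median of Acot1, a cytosolic acyl-CoA thioesterase, at 4.60 RPKM compared with 3.40 in liver and 0.374 in eWAT. Cpt1b, the muscle form of the shuttle's first enzyme, was at 0.0565 RPKM in eWAT, 0.0803 in liver and 0.00695 in the pituitary, and passed the filter on low counts in none of them.

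**Figure D1:**
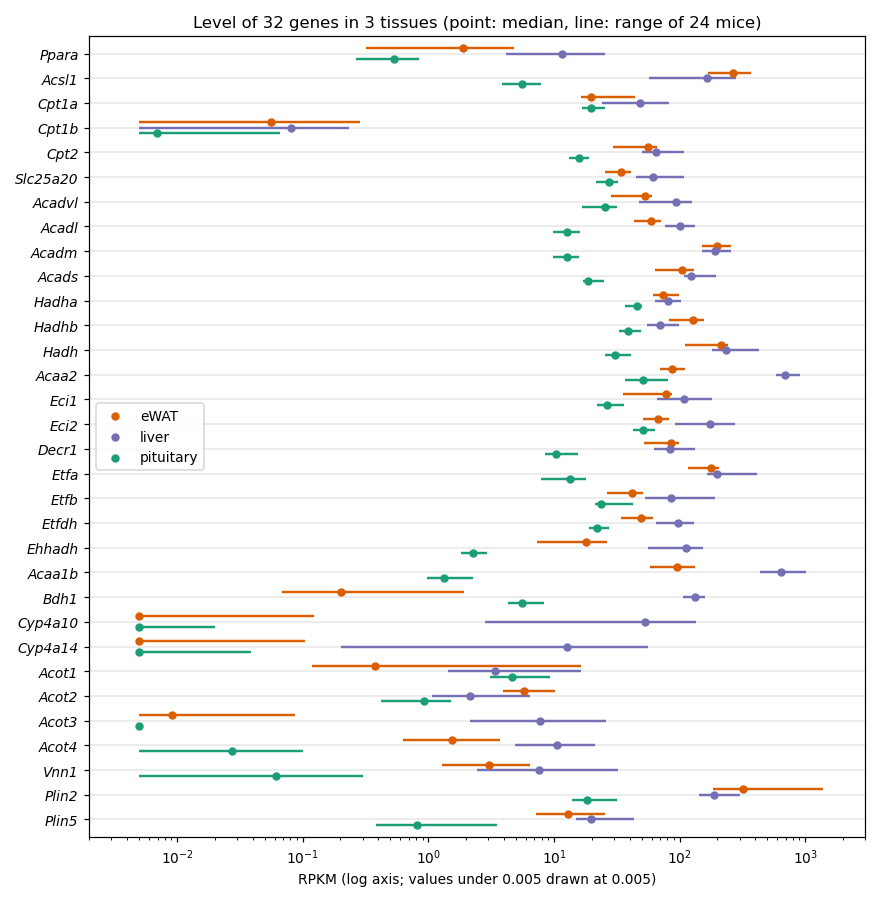
Level of each of the 32 genes as RPKM on a log axis, with a point for each tissue at the median of 24 mice and a line over their range. Genes are ordered by role, and values under 0.005 are drawn at 0.005. Liver is the rightmost point for 25 genes, eWAT for 6 (among them Plin2 at 319 RPKM) and pituitary for Acot1 alone.

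In a fit of all 72 libraries (edgeR quasi-likelihood test, called at a Benjamini-Hochberg adjusted p under 0.05), 27 of 31 tested genes were higher in liver than in eWAT and Acot2 was lower (log2FC −0.55, adjusted p 0.000186). The background was large, since 83.5% of all genes tested were called between these tissues. Without TMM factors, the scaling of library sizes between libraries, the members' median moved by −0.74 on the log2 scale and the numbers were 25 higher and 4 lower. The call of Decr1 was then lost (0.10, adjusted p 0.209). Acadm turned from 0.68 to −0.06 on that scale, the same direction as its RPKM. All 31 tested genes were higher in liver than in pituitary, where 89.6% of all genes were called. The smallest of these differences was that of Acot1 (0.65), opposite in direction to its median RPKM (3.40 in liver and 4.60 in the pituitary). The value of Acot1 fell to 0.03 (adjusted p 0.923) without TMM factors and to 0.45 (adjusted p 0.0644) with mouse as a block. Between eWAT and pituitary 26 were higher, 2 were lower (Bdh1 −4.42 and Acot1 −3.02) and 86.8% of all genes were called.

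The omega-oxidation genes Cyp4a10 and Cyp4a14 and the peroxisomal thioesterase Acot3 were near liver-only on the raw counts. Liver counts of Cyp4a10 ran from 82 to 5138, and it was at 0 counts in 19 of 24 eWAT and 22 of 24 pituitary libraries. Acot3 was at 0 in all 24 pituitaries.

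The first question for eWAT was how HFD changed these genes in the offspring of FED dams. Plin2 and Cpt1a rose and no member fell. Cpt1a is the rate-limiting entry enzyme of mitochondrial fatty acid import. Of 28 genes tested, 2 were called, compared with 10.5% of all genes tested (7.81% called higher). Members lay on both sides of 0, with 13 above and 15 below, and their median log2FC was −0.04 (all genes −0.00). FED-HFD mouse 23 was the lowest of its group for many members, as given below.

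In eWAT, Plin2 (GRCm39 chr4:86565912-86588459) was at 9.10, 9.23 and 9.55 log2 CPM in FED-CTRL mice (lowest, median and highest) and at 9.72, 10.00 and 11.36 in FED-HFD mice. The groups did not overlap, and FED-HFD mouse 23 stood highest. The log2FC was 1.05 (SE 0.24, n = 6 per group, adjusted p 0.0077 by edgeR), and without mouse 23 it was 0.72 (adjusted p 0.0241). Without the 5 libraries with markers of other tissues it was 1.20 (adjusted p 0.0058).

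Cpt1a (GRCm39 chr19:3371853-3437996) was at 6.84, 6.96 and 7.23 log2 CPM in FED-CTRL eWAT and at 7.28, 7.52 and 8.06 in FED-HFD eWAT. Here too every HFD mouse lay above every control mouse. The log2FC was 0.62 (SE 0.14, n = 6 per group, adjusted p 0.0077), 0.51 without mouse 23 (adjusted p 0.0223) and 0.69 without the 5 libraries (adjusted p 0.0046). The third gene whose groups did not overlap was Acot1, and across all genes 6.76% did not overlap.

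Acot1 was low in eWAT, at −1.40 to −0.23 log2 CPM in FED-CTRL and −0.05 to 1.24 in FED-HFD. Its log2FC of 1.72 was not called by edgeR (adjusted p 0.226). It was called by voom with quality weights (1.71, adjusted p 0.022), with only the groups compared (adjusted p 0.018) and without the 5 libraries (1.87, adjusted p 0.038). Plin5, the droplet coat that ties droplets to mitochondria, had a log2FC of 0.49 (adjusted p 0.10), which voom called (0.61, adjusted p 0.0096). The 8 enzymes of the mitochondrial spiral ranged from −0.27 to 0.20, and the 3 electron transfer genes from −0.09 to 0.05. These values include FED-HFD mouse 23, the lowest of its group for each of them.

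Macrophage markers moved with this comparison. Their summed level was 1350 to 2068 CPM in FED-CTRL and 2395 to 15986 CPM in FED-HFD eWAT, and 10 of the 12 markers were called higher, with none at 0. FED-HFD mouse 23 held the highest macrophage sum, the highest Plin2 and the lowest adipocyte sum of its group (9143 CPM). Of 6 brown fat markers, 2 were called higher, with sums of 26.8 to 35.0 CPM in FED-CTRL and 14.6 to 43.7 CPM in FED-HFD. The part of these cells in the changes of Plin2 and Cpt1a was not tested.

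**Figure D2:**
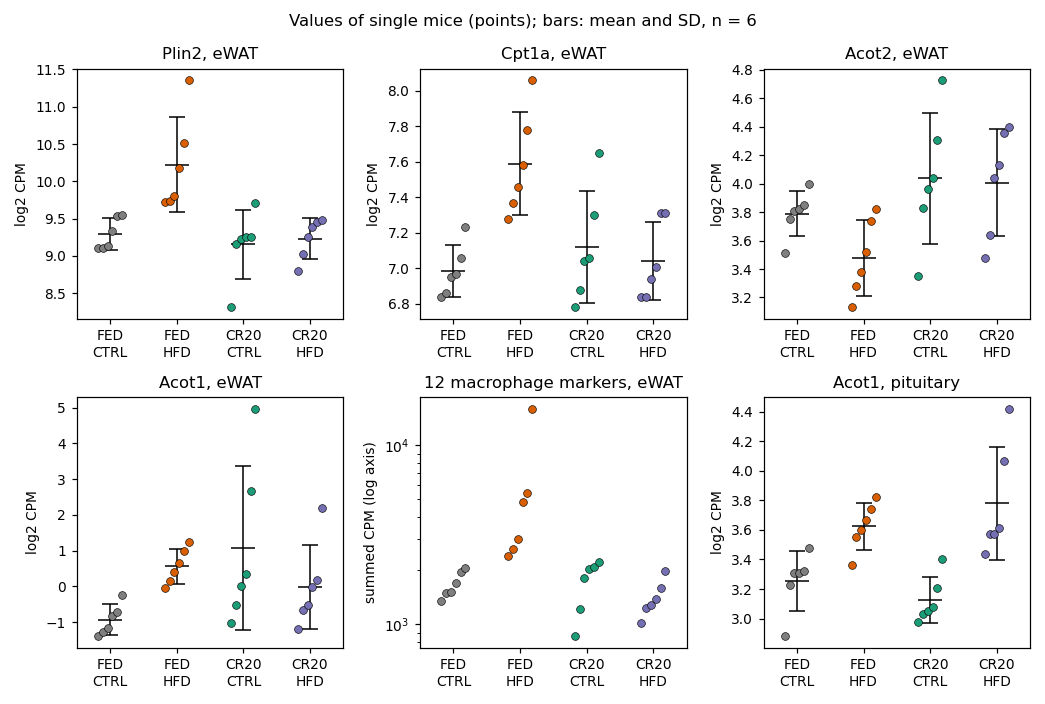
Log2 CPM of Plin2, Cpt1a, Acot2 and Acot1 in eWAT and of Acot1 in pituitary, and the summed CPM of 12 macrophage markers in eWAT (log axis), with 1 point per mouse and bars for the mean and SD of each group of 6 (none for the macrophage sum). FED-HFD eWAT stands above FED-CTRL for Plin2 and Cpt1a, and its macrophage sum reaches 15986 CPM.

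In the offspring of CR20 dams the same diet comparison gave no call. In CR20-HFD compared with CR20-CTRL eWAT, edgeR called 0 of 28 members and 0% of all genes, while 4 members and 6.03% of all genes had an unadjusted p under 0.05. DESeq2 and voom called no member either. Plin2 had a log2FC of 0.04. Acaa1b (7.38 at the highest in CR20-CTRL and 7.41 at the lowest in CR20-HFD) had a log2FC of 0.60 (adjusted p 0.789) and its groups did not overlap, as for 0.113% of all genes. Slc25a20, the carnitine-acylcarnitine carrier, was at 0.32 (adjusted p 0.789). Acot1 was at −2.42 (adjusted p 0.789), a value set by CR20-CTRL mice 4 (2.66 log2 CPM) and 5 (4.97 log2 CPM), and it turned to 0.78 without the 5 libraries. All 8 spiral enzymes, all 3 auxiliary enzymes and all 3 electron transfer genes lay above 0, at 0.06 to 0.30. These values include CR20-CTRL mouse 5, which is among the 5 libraries with markers of other tissues. Mouse 5 was the lowest of its group for each of these genes except Acaa2. Their direction without mouse 5 is not given here, so the shared direction may rest on that library.

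The difference between the 2 diet responses was tested directly. No member was called, compared with 2.29% of all genes, and 6 members and 18.2% of all genes had an unadjusted p under 0.05. Cpt1a was nearest at −0.71 (SE 0.20, adjusted p 0.0617), then Acot1 at −4.14 (adjusted p 0.0712) and Plin2 at −1.01 (adjusted p 0.114). DESeq2 called Cpt1a (adjusted p 0.0204) and Acot1 (adjusted p 0.00878). Without FED-HFD mouse 10, 11 or 40 the edgeR value of Cpt1a was −0.77 to −0.74 and passed (adjusted p 0.0326 to 0.0459). Acot1 passed without CR20-CTRL mouse 48 (−4.35, adjusted p 0.0410), and was −1.09 (adjusted p 0.549) without the 5 libraries. Plin2 was −0.67 (adjusted p 0.238) without FED-HFD mouse 23. Without the 5 libraries Cpt1a was −0.63 (adjusted p 0.138).

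On HFD, the eWAT of CR20 offspring held less Plin2 and Cpt1a and more Acot2, a mitochondrial thioesterase, than that of FED offspring. These 3 of 28 members were called, compared with 14.9% of all genes. Plin2 was at 8.80, 9.32 and 9.48 log2 CPM in CR20-HFD, entirely below the FED-HFD mice. Its log2FC was −1.10 (SE 0.24, n = 6 per group, adjusted p 0.0038), and −0.77 without mouse 23 (adjusted p 0.0111). Cpt1a was at 6.84, 6.98 and 7.31 in CR20-HFD and overlapped with the FED-HFD mice at its upper end. Its log2FC was −0.56 (SE 0.14, adjusted p 0.0112), and −0.44 without mouse 23 (adjusted p 0.0370).

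Acot2 (GRCm39 chr12:84034428-84040647) was at 3.13, 3.45 and 3.82 log2 CPM in FED-HFD and at 3.48, 4.08 and 4.40 in CR20-HFD eWAT, with overlap. The log2FC of 0.55 (SE 0.19, adjusted p 0.0486) was the least firm of the 3. It was lost without any one of FED-HFD mice 12, 13, 23 or 40 or CR20-HFD mice 31, 32, 6 or 7 (0.47 to 0.56, adjusted p 0.0707 to 0.127), without the 5 libraries (0.51, adjusted p 0.135) and by voom (0.39, adjusted p 0.139). In all, 17 of 22 alternatives lost it, among them edgeR with every other scaling or filter tried and the fit of only the groups compared (adjusted p 0.0526 to 0.0921). Part of its sequence recurs elsewhere, since 15.6% of the 100-base windows of its transcript were found in another gene, so its reads may be shared.

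Hadh did not overlap between these groups either (7.50 to 8.58 in FED-HFD, 8.62 to 8.75 in CR20-HFD), as was true of 6.66% of all genes, but its log2FC of 0.37 was not called (adjusted p 0.108). Eci2 was at 0.25 (adjusted p 0.0838). Macrophage markers moved here as well. Their sum was 1011 to 1991 CPM in CR20-HFD, and 11 of 12 markers were called lower. Of 6 adipocyte markers, 2 were called higher, with sums of 9143 to 25897 CPM in FED-HFD and 27356 to 31460 CPM in CR20-HFD, and 1 of 5 endothelial markers was called higher. Of 5 tested hepatocyte markers, 2 were called lower. The part of these cells in the values of Plin2, Cpt1a and Acot2 was not tested.

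On the control diet, CR20-CTRL and FED-CTRL eWAT gave 0 calls among members and 0% among all genes by edgeR, with 1 member and 7.39% of all genes at an unadjusted p under 0.05. Acot1 had a log2FC of 3.92 (adjusted p 0.235), which DESeq2 called (3.92, adjusted p 0.00119) and which was 0.80 (adjusted p 1) without the 5 libraries. Bdh1 was at 1.30 (adjusted p 0.776) and reached 2.63 log2 CPM in FED-HFD mouse 10 and 2.35 in CR20-CTRL mouse 5, where summed hepatocyte markers were 726 and 627 CPM. Without the 5 libraries it was 0.28 (adjusted p 1). Acot2 was at 0.30 (adjusted p 0.838).

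Averaged over both dam groups, HFD compared with CTRL gave no called member in eWAT (0.251% of all genes). An unadjusted p under 0.05 was found for 7 members and 17.1% of all genes. Slc25a20 (0.27, adjusted p 0.0739), Acaa1b (0.43, adjusted p 0.0935) and Plin2 (0.55, adjusted p 0.114) were nearest, and voom called 6 members and DESeq2 3. Without FED-HFD mouse 23, edgeR called Slc25a20 and Acaa1b (0.49, adjusted p 0.0343), and without CR20-CTRL mouse 48 it called Slc25a20 (adjusted p 0.0385 to 0.0454 over both).

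Averaged over both diets, Plin2 was lower in CR20 than in FED eWAT (−0.60, SE 0.17, adjusted p 0.0358), and 6.68% of all genes were called. This call was lost without any one of FED-HFD mouse 12, FED-CTRL mice 14, 16 or 24, CR20-HFD mice 31, 32 or 7, or CR20-CTRL mouse 33 (adjusted p 0.0517 to 0.0610). On the control diet alone Plin2 was not called. It was at 9.10 to 9.55 log2 CPM in FED-CTRL, and in CR20-CTRL at 8.31 in mouse 5 and 9.16 to 9.71 in the others. Acot2 (0.43, adjusted p 0.0513) and Acot1 (1.85, adjusted p 0.0657) fell just outside. Acot2 was called without any one of FED-HFD mice 10 or 11, CR20-HFD mice 45 or 46, or CR20-CTRL mice 47 or 49 (adjusted p 0.0220 to 0.0437), and Acot1 without CR20-CTRL mouse 47 or 49 (1.97 and 1.98). Without the 5 libraries Acot1 was 0.25 (adjusted p 0.749). Of the 12 macrophage markers, 9 were called lower in CR20 eWAT, and their part was not tested.

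In FED offspring fewer genes were called for diet in liver than in eWAT (0.109% and 10.5% of all genes). Liver had more calls than eWAT in CR20 offspring (0.515% and 0%) and averaged over dams (1.74% and 0.251%). Most liver members lay a little above 0. Acadm and Eci2 rose with HFD when both dam groups were averaged, and these 2 of 31 members were called, compared with 1.74% of all genes (0.646% called higher). Acadm is the medium-chain acyl-CoA dehydrogenase of the spiral. In all, 27 of 31 members lay above 0, compared with 48.8% of all genes, with a median of 0.15 (all genes −0.01). All 8 spiral enzymes, all 3 auxiliary enzymes and all 4 thioesterases were on that side, most of them with intervals that span 0. A property of the libraries that ran with several of these genes is described below.

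Acadm (GRCm39 chr3:153627989-153650317) was at 8.45, 8.56 and 8.74 log2 CPM in FED-CTRL and 8.59, 8.92 and 9.03 in FED-HFD liver. In CR20 offspring it was at 8.25, 8.33 and 8.64 on CTRL and 8.56, 8.69 and 8.98 on HFD. Both pairs of groups overlapped. The averaged log2FC was 0.31 (SE 0.08, n = 12 per diet, adjusted p 0.0320). It was lost without any one of FED-HFD mice 11, 12 or 23, FED-CTRL mice 14, 24, 41 or 42, CR20-HFD mouse 31, or CR20-CTRL mice 47 or 49, with values of 0.30 to 0.31 (adjusted p 0.0507 to 0.0644).

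Eci2 (GRCm39 chr13:35161718-35211079) was at 7.46, 7.75 and 7.87 log2 CPM in FED-CTRL and 7.67, 8.17 and 8.61 in FED-HFD liver. It was at 6.94, 7.39 and 7.88 in CR20-CTRL and 7.76, 7.91 and 8.34 in CR20-HFD liver. The averaged log2FC was 0.47 (SE 0.12, adjusted p 0.0418). It was lost without any one of FED-HFD mice 12, 23 or 40, FED-CTRL mice 14, 16, 41 or 42, CR20-HFD mice 31, 46 or 7, or CR20-CTRL mice 47, 49, 4 or 5 (0.42 to 0.48, adjusted p 0.0542 to 0.0868). Both calls were also lost with no filter on low counts (adjusted p 0.156 for Acadm and 0.0798 for Eci2). The third gene by p was Acot1 at 0.94 (adjusted p 0.216). The values of macrophage markers were not called in this comparison (0 of 9 tested).

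Within each dam group the same 2 genes led without passing. In FED offspring edgeR called no member and 0.109% of all genes, and neither voom nor DESeq2 called a member. An unadjusted p under 0.05 was found for 4 members and 6.66% of all genes. Eci2 was at 0.47 (adjusted p 0.519), Acadm at 0.28 (adjusted p 0.584) and Cyp4a14 at −1.35 (adjusted p 0.736). In CR20 offspring edgeR called no member and 0.515% of all genes, with 3 members and 9.57% of all genes at an unadjusted p under 0.05. Acadm was at 0.35 (adjusted p 0.215), Eci2 at 0.48 (adjusted p 0.337) and Cyp4a10 at 1.29 (adjusted p 0.514). Acadm in CR20 offspring was called by voom (0.37, adjusted p 0.0489), by DESeq2 (0.34, adjusted p 0.0488) and without TMM factors (0.43, adjusted p 0.0450).

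**Figure D3:**
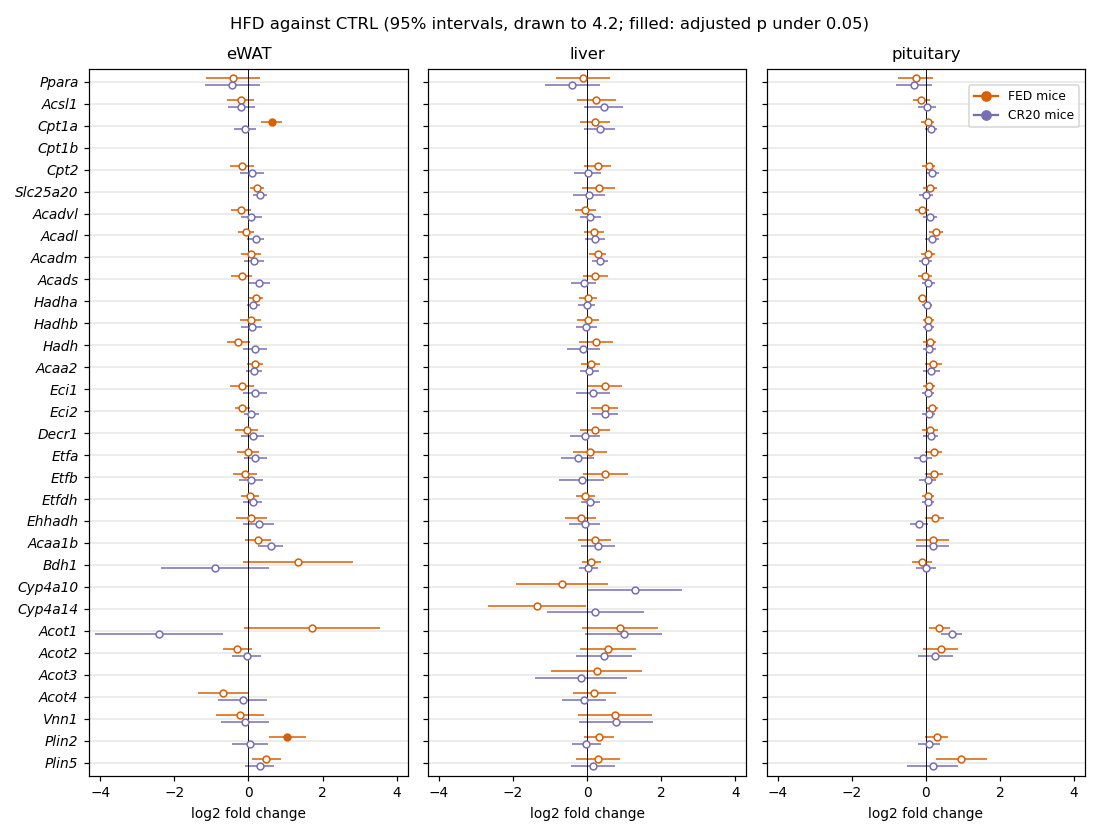
Log2FC of HFD compared with CTRL for each tested member in eWAT, liver and pituitary, with 95% confidence intervals, separately for FED and CR20 offspring; filled points passed an adjusted p of 0.05 (edgeR), and genes that were not tested have no point. Plin2 and Cpt1a in FED eWAT are the filled points, and most liver points lie right of 0 with intervals that cross it.

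The dams' restriction gave no called member in liver by edgeR, voom or DESeq2. Between CR20-HFD and FED-HFD liver, 0% of all genes were called, 27 of 31 members lay below 0 with a median of −0.15 (all genes 0.01), and only Acot4 (−0.60, adjusted p 1.00) had an unadjusted p under 0.05, compared with 3.58% of all genes. Acot3 was at −0.95 and Hadha, the trifunctional protein's alpha subunit, at −0.17 (adjusted p 1.00 for each). In CR20-CTRL compared with FED-CTRL liver, with 0% of all genes called, 2 members and 2.17% of all genes had an unadjusted p under 0.05, and the smallest p-values were those of Acadvl (−0.30), Cyp4a10 (−1.27) and Acadm (−0.20), each with an adjusted p of 0.999. The interaction called 0% of all genes and no member (1 member and 1.76% of all genes at an unadjusted p under 0.05). Its leading members were Cyp4a10 at 1.97 (SE 0.86), Cyp4a14 at 1.57 and Etfb, the beta subunit of the electron transfer flavoprotein, at −0.64, all with an adjusted p of 0.999. With voom the value of Etfb was −0.0055. Leaving out the TMM factors moved the members' median in that test by 0.11. Averaged over diets, 0% of all genes were called, 3 members and 4% of all genes had an unadjusted p under 0.05, and Acadvl was at −0.23, Acot4 at −0.46 and Acadm at −0.17 (adjusted p 0.999 each).

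What set the liver members apart from each other was their spread between mice of one group. The SD of log2 CPM within groups was 0.405 for the median gene in liver. It was 0.152 for Acadm, 0.168 for Hadha and 0.190 for Acaa2, at percentiles 1.90, 3.30 and 6.11 of all genes. Cyp4a14 had an SD of 1.43 and Cyp4a10 of 1.32, at percentiles 99.6 and 99.4, and Acot3 (1.16), Acot1 (0.972) and Vnn1 (0.968) followed. Vnn1 encodes a pantetheinase that returns the vitamin part of coenzyme A.

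Cyp4a10 in liver was at 4.45, 7.19 and 8.10 log2 CPM in FED-CTRL and 2.63, 6.44 and 7.53 in FED-HFD. It was at 3.54, 5.69 and 6.91 in CR20-CTRL and 6.06, 7.05 and 7.66 in CR20-HFD. The 6 CR20-HFD livers lay within the upper part of the range of the other groups. Cyp4a14 was at −0.63, 3.65 and 5.72 in FED-HFD and 4.73, 5.02 and 5.60 in CR20-HFD. FED-HFD mouse 13 held the lowest value of both genes and, with 1.78 log2 CPM, the lowest Acot1 of its group.

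**Figure D4:**
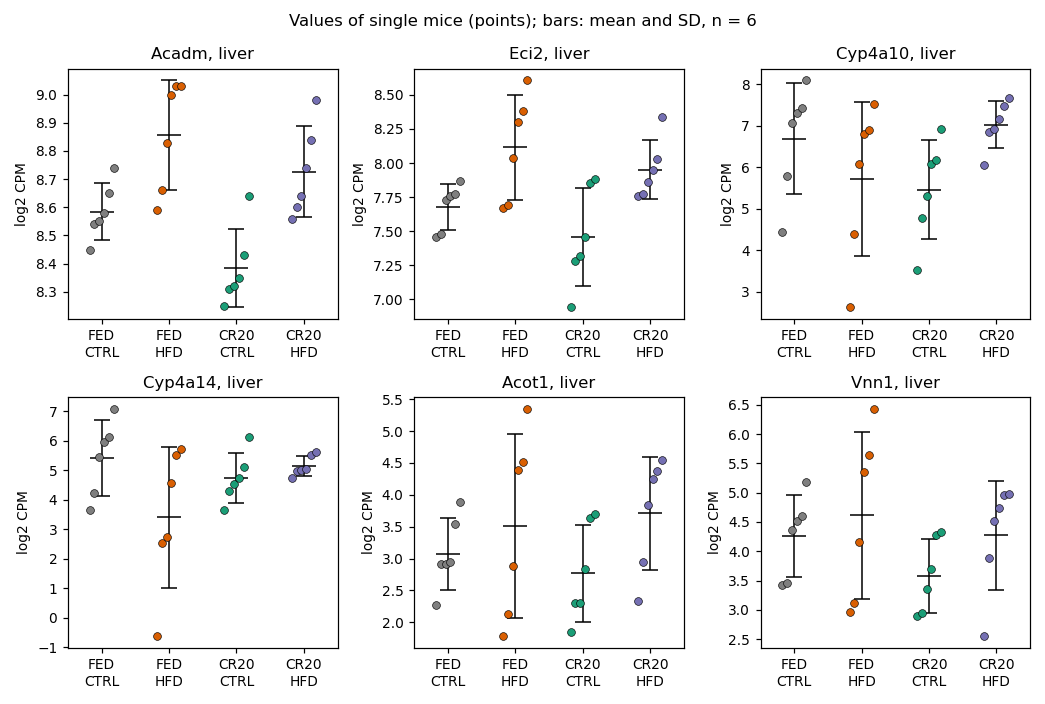
Log2 CPM of Acadm, Eci2, Cyp4a10, Cyp4a14, Acot1 and Vnn1 in liver, with 1 point per mouse and bars for the mean and SD of each group of 6. Acadm and Eci2 lie in narrow bands that shift upward on HFD, and the Cyp4a genes range from −0.63 to 8.10 within and between groups.

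Livers with high Cyp4a10 were also high in Cyp4a14. Deviations from the group means were correlated over the 24 mice for 36 gene pairs, with p-values from 100000 permutations within groups adjusted over the 36. Cyp4a10 and Cyp4a14 gave r = 0.89 and rho = 0.84 (permutation p 2e-05 and 3e-05, where 1e-05 is the smallest they can give, and adjusted p 0.00018 and 0.00054), r = 0.80 without mice 13 and 14, and r = 0.88 and 0.83 within the animal numbers under 20 (n = 11) and of 40 and above (n = 8). Within single groups r was 0.97 in FED-CTRL, 0.95 in FED-HFD, 0.71 in CR20-CTRL and 0.43 in CR20-HFD. Of the Cyp4a10 windows of 100 bases, 15.6% recur in another gene, namely Cyp4a32 or Cyp4a31 and not Cyp4a14. Acot1 and Vnn1 gave r = 0.74 and rho = 0.63 (permutation p 0.00136 and 0.00898, adjusted p 0.00612 and 0.0359), and r = 0.63 without mice 12 and 13.

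Ppara itself ran at 4.09 to 6.44 log2 CPM in liver and was not called in any diet or dam comparison. The correlations of its deviations with those of Cyp4a10 and Vnn1 did not pass, at r = 0.35 and rho = 0.35 for Cyp4a10 (permutation p 0.123 and 0.118, adjusted p 0.201 and 0.185) and r = −0.10 and rho = −0.01 for Vnn1 (permutation p 0.656 and 0.967, adjusted p 0.716 and 0.967). They ran with Cpt1a at r = 0.80 and rho = 0.80 (permutation p 1e-05 for both, adjusted p 0.00018 and 0.00036), and r was 0.81 without mice 49 and 5. They ran against Etfb at r = −0.86 and rho = −0.81 (permutation p 2e-05 and 8e-05, adjusted p 0.00018 and 0.00072), and r was −0.80 without mice 49 and 5. They also ran against Plin5 at r = −0.82 and rho = −0.79 (permutation p 1e-05 and 7e-05, adjusted p 0.00018 and 0.00072), and r was −0.79 without the same mice. Further negative r values passed for Etfa (−0.75), Eci1 (−0.70), Acaa2 (−0.67), Acads (−0.66), Hadh (−0.65), Decr1 (−0.65), Bdh1 (−0.64) and Cpt2 (−0.61). Their adjusted permutation p was 0.000432 to 0.0202 for r. For rho, Hadh (0.087) and Cpt2 (0.0905) did not pass. Cpt1a was the only member whose positive r with Ppara passed.

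A property of the libraries moved with these Ppara relations. The median deviation of 508 short protein-coding genes (under 1000 bases) minus that of 4928 long ones (4000 bases or more) differed between liver libraries. With deviations from the mean of all livers it ran from −0.76 to 1.20 over all groups, with overlapping ranges. With deviations from group means it ran from −0.82 to 1.11, and this form was used for the correlations. It was correlated with Ppara at −0.88, Etfb at 0.95, Plin5 at 0.84 and Cpt1a at −0.66, compared with −0.43 for Cyp4a10, 0.09 for Vnn1, 0.46 for Acadm and −0.23 for Eci2 (n = 24 each). Etfa (0.91), Hadh (0.86), Eci1 (0.83) and Acads (0.82) also ran with it, and Acadvl (−0.53) and Acsl1 (−0.48) against it. With deviations from the mean of all livers, its group medians were −0.16 in FED-CTRL, 0.03 in FED-HFD, −0.21 in CR20-CTRL and −0.10 in CR20-HFD liver. Its part in the relations of Ppara and in the diet values of liver members was not tested. In eWAT the same measure was correlated with Etfb at 0.84, Decr1 at 0.70, Hadh at 0.56 and Plin2 at 0.50. It was at −0.21 for Cpt1a and −0.11 for Acot2 (n = 24 each). Its eWAT group medians were −0.05 in FED-CTRL, −0.08 in FED-HFD, 0.12 in CR20-CTRL and 0.22 in CR20-HFD. Its part in the eWAT values was not tested. Of the Ppara windows, 49.4% are shared with the gene Cdpf1 on the opposite strand, and the strand setting of the counting is not given in the sources used here.

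**Figure D5:**
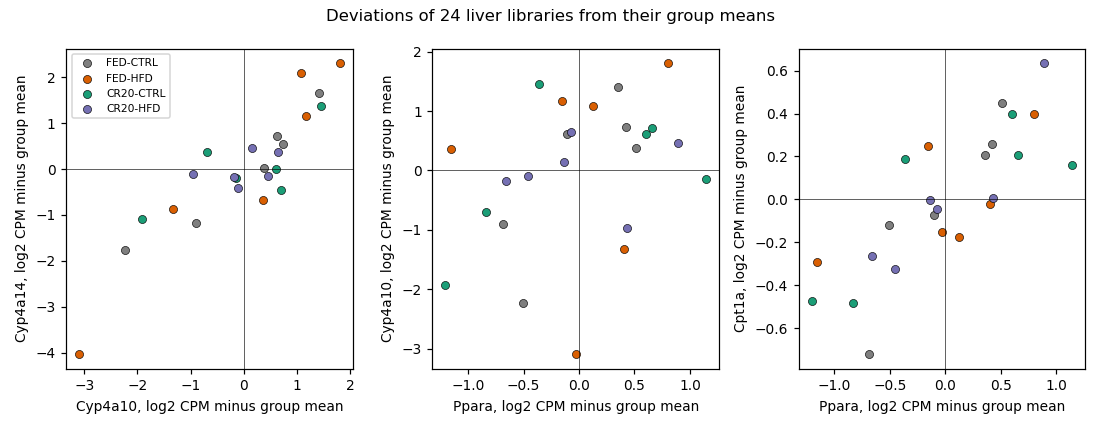
Deviation from the group mean in log2 CPM for 24 livers, plotted for Cyp4a10 against Cyp4a14, Ppara against Cyp4a10 and Ppara against Cpt1a, with 1 point per mouse coloured by group. The first pair follows a line (r = 0.89), the second scatters (r = 0.35) and the third follows a line (r = 0.80).

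The rise of Eci2 on HFD in liver was set against its value in eWAT in the fit of all 72 libraries. In FED offspring the liver response was larger by 0.61 (SE 0.18, adjusted p 0.0374) and Eci2 was the 1 called member, compared with 4.1% of all genes. With mouse as a block it was 0.59 and not called (adjusted p 0.0539). The call was lost without any one of mice 12, 14, 15, 16, 23, 40, 41 or 42 in both tissues (0.50 to 0.63, adjusted p 0.0510 to 0.210). Plin2 was at −0.76 (adjusted p 0.152) and Eci1, the other isomerase, at 0.62 (adjusted p 0.159). Averaged over dams the difference for Eci2 was 0.50 (SE 0.13, adjusted p 0.0271; 1.46% of all genes), and it was lost without any one of mice 4, 12, 14, 23, 31 or 41 (adjusted p 0.0511 to 0.0885). Acsl1 (0.53, adjusted p 0.219) and Acot2 (0.67, adjusted p 0.247) came next.

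In the pituitary, where these genes are mostly low, Acot1 rose with HFD when dam groups were averaged. It was the 1 called member of 26 and 1 of 4 genes called in all (0.024%). Acot1 (GRCm39 chr12:84056256-84065145) was at 2.88, 3.31 and 3.48 log2 CPM in FED-CTRL and 3.36, 3.64 and 3.82 in FED-HFD pituitary. It was at 2.98, 3.06 and 3.40 in CR20-CTRL and 3.44, 3.59 and 4.42 in CR20-HFD. The CR20 groups did not overlap, as for 0.408% of all genes, and the FED groups did. The averaged log2FC was 0.53 (SE 0.10, n = 12 per diet, adjusted p 0.0369).

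The Acot1 call was lost without any one of FED-CTRL mouse 15, CR20-CTRL mice 33, 47, 48 or 49, FED-HFD mouse 40 or CR20-HFD mouse 7 (0.50 to 0.54, adjusted p 0.0613 to 0.0989). It was also lost by voom (0.51, adjusted p 0.0849), without TMM factors (0.52, adjusted p 0.112) and with the range of animal numbers as a covariate (0.50, adjusted p 0.0597). In CR20 offspring alone it was at 0.70 (adjusted p 0.340; DESeq2 0.71, adjusted p 0.0093; no filter 0.71, adjusted p 0.0121) and in FED offspring at 0.37 (adjusted p 0.365). Of the Acot1 windows, 21.8% recur in another gene. Acadl (0.22, adjusted p 0.380) and Plin5 (0.57, adjusted p 0.703) came next.

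The other pituitary comparisons called no member by edgeR and 0% of all genes each. In FED-HFD compared with FED-CTRL, 3 members and 9.64% of all genes had an unadjusted p under 0.05, led by Acadl, the long-chain dehydrogenase (0.28, adjusted p 0.320). Plin5 was at 0.95 (adjusted p 0.334) there. FED-HFD mouse 10 stood at 3.06 log2 CPM with adipocyte markers of 109 CPM and brown fat markers of 316 CPM, and the value was 0.38 without it. Between CR20-HFD and CR20-CTRL, 2 members and 7.28% of all genes had an unadjusted p under 0.05, and Cpt2 (0.18, adjusted p 0.663) followed Acot1. Between CR20-HFD and FED-HFD, 0 members and 6.77% of all genes did, and Ehhadh (−0.21), Eci1 (−0.15) and Decr1 (−0.18) led (adjusted p 0.774 to 0.777).

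Etfa, the alpha subunit of the electron transfer flavoprotein, was at 0.39 in CR20-CTRL compared with FED-CTRL pituitary (SE 0.11, adjusted p 0.108), where 1 member and 17.3% of all genes had an unadjusted p under 0.05. DESeq2 called it (0.38, adjusted p 0.0463), and edgeR called it without FED-CTRL mouse 42 (0.44, adjusted p 0.0389). Acads (−0.17) and Decr1 (−0.19) followed. The interaction was led by the peroxisomal bifunctional enzyme Ehhadh (−0.43, adjusted p 0.380), with 1 member and 11% of all genes at an unadjusted p under 0.05. Averaged over diets, Etfa was at 0.24 (adjusted p 0.243), and 4 members and 13.2% of all genes had an unadjusted p under 0.05.

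Genes that work beside these 32 were counted in 6 lists. In FED-HFD compared with FED-CTRL eWAT, 3 of 23 tested other PPAR alpha targets rose, namely Pdk4 (1.71), which turns off glucose oxidation, Ucp2 (1.06), an uncoupling protein, and Apoa2 (6.87), a hepatocyte gene, in a comparison where 7.81% of all genes were called higher. Of 18 receptors and cofactors, Creb3l3 (2.56) rose and Rxra (−0.47) and Lpin1 (−0.69) fell. Acsl5 (0.31) was called of 22 other mitochondrial genes, Aacs (−0.82) of 8 ketone body genes and none of 11 lipid droplet genes. Between CR20-HFD and FED-HFD eWAT, where 14.9% of all genes were called, 4 other targets were lower, among them Ucp2 (−0.91), and so was Creb3l3 (−2.20). Of 22 other mitochondrial genes, 3 were called higher, among them Hsd17b10 (0.44), and 2 lower, Acsl5 (−0.32) and Acsl4 (−0.61). Aacs was higher (0.74), and no lipid droplet gene was called. Among the FED-HFD mice, summed hepatocyte markers were highest in mice 10 (726 CPM) and 13 (152 CPM), and their part in Apoa2 and Creb3l3 was not tested.

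In liver, averaged over dams, HFD raised Pex11a (0.73), which divides peroxisomes, and Phyh (0.35), which starts the breakdown of phytanic acid, of 20 peroxisomal genes, compared with 1.74% of all genes called. Of 20 other mitochondrial genes, Ivd rose (0.38) and Acsl5 (−0.62) and Acacb (−2.53) fell. Acacb makes the malonyl-CoA that blocks Cpt1a. Pnpla3 fell (−4.43) of 11 lipid droplet genes, and no receptor, cofactor, other PPAR alpha target or ketone body gene was called.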

How the data were processed

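The authors trimmed the reads with Trimmomatic, aligned them with STAR to GRCm39, counted them per gene with Subread, and deposited raw counts with no normalization. The strand setting and software versions are not given in the sources used here. The labels name a stranded total RNA kit, and the methods also name a stranded mRNA kit.

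The members and lists were chosen with earlier results of these data known. Groups came from the deposited labels. Gene names and positions came from GENCODE M39, and promoters from RefSeq GRCm38.p6. Counts of each tissue were fitted with edgeR 4.0.16 in R 4.3.3 (filterByExpr, TMM, glmQLFit, glmQLFTest) with a mean for each group, and p-values, two-sided, were adjusted by the Benjamini-Hochberg method over all genes tested. Tissues were compared in 1 fit of 72 libraries. Log2 CPM used a prior count of 2. The test was checked on simulated data. Full statistics were given for called members and, where fewer than 3 were called, for the 3 with the smallest p, and up to 3 called genes of each further list. The list of further peroxisomal genes is not reported here for eWAT.

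Alternatives were limma 3.58.1 voom with quality weights, the authors' kind of model, DESeq2 1.42.0, DESeq2 size factors, no TMM factors, no filter, over 1 CPM in 6 libraries, the range of animal numbers as a covariate, only the groups compared, the thresholds of the methods (adjusted p under 0.055, absolute log2FC of at least 0.58), each mouse left out, and mouse as a block across tissues. One was chosen after seeing the data, namely eWAT without the 5 libraries over 100 CPM of hepatocyte or 10 CPM of epididymis and testis markers. The animal numbers pair the tissues, since each number is 1 mouse. The deviations of a mouse's liver and eWAT had a median correlation of 0.0591 over genes, compared with −0.0099 for other mice of its group.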

Additional observations from a re-analysis of the deposited data

Results flagged for a closer look

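Acadl was at 4.81 log2 CPM in the pituitary of FED-HFD mouse 13, the lowest of its 6 mice, with the next at 5.12 and a gap that made up 0.735 of the group's range. It stood far from the others in 1 of 100 gene and group combinations examined, and chance alone gives about 1 in 20.

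The HFD response of Eci2 was larger in liver than in eWAT, by 0.61 in FED offspring (adjusted p 0.0374) and by 0.50 averaged over dams (adjusted p 0.0271, edgeR). The difference itself was tested, and both calls depended on single mice as given above. Liver and eWAT came from the same mice, and with mouse as a block the call in FED offspring was lost (0.59, adjusted p 0.0539).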

How the results depend on the processing

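Most results kept their side of the threshold, in a tally that also holds comparisons between tissues and members that were not called. Under settings other than leaving out a mouse, 189 counts of called members stayed within 1.5 times the main count and 28 did not. Among values of single genes, 1064 kept their direction and call, 34 lost the call, 19 gained it and 2 turned. Fits without 1 mouse are outside these numbers. In those fits Eci2 lost its averaged liver call in 14 of 24 and Acadm in 10 of 24. Acot2 lost its call between CR20-HFD and FED-HFD eWAT in 8 of 12. The 2 calls in FED-HFD compared with FED-CTRL eWAT stayed in all 12. The cause of the following changes was not tested. In FED-HFD compared with FED-CTRL eWAT, voom called 8 members and edgeR without TMM factors 4, against 2. In CR20-HFD compared with FED-HFD eWAT, the thresholds of the methods left 1 and voom gave 5, against 3. In CR20-CTRL compared with FED-CTRL eWAT, DESeq2 called 1, and in the eWAT interaction 2, against 0. For HFD averaged over dams in eWAT, voom called 6 and DESeq2 3, against 0. For CR20 averaged over diets in eWAT, DESeq2 called 3, and the range of animal numbers and leaving out the 5 libraries 2 each, against 1. For HFD in CR20 liver, voom, DESeq2 and no TMM factors called 1 each, against 0. For HFD averaged over dams in liver, the thresholds of the methods and no filter gave 0, against 2. In the pituitary, DESeq2 and no filter called 1 in CR20-HFD compared with CR20-CTRL, DESeq2 called 1 in CR20-CTRL compared with FED-CTRL, and for HFD averaged over dams the thresholds of the methods, voom, no TMM factors and the range of animal numbers gave 0, against 1. For the response of liver minus eWAT, the replicate block of mice, voom and no TMM factors gave 0 in FED mice, and the thresholds of the methods and voom gave 0 averaged over dams, against 1 each. The replicate block also ended the call of Acot1 between liver and pituitary (0.45, adjusted p 0.0644) and no other. The 2 values that turned were Acot1 in CR20-HFD compared with CR20-CTRL eWAT (0.78 without the 5 libraries) and Acadm in liver compared with eWAT (−0.063 without TMM factors).

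With each mouse left out in turn, the number of called members ran from 2 to 3 in CR20-HFD compared with FED-HFD eWAT, 0 to 1 in the eWAT interaction, 0 to 2 for HFD averaged over dams and 0 to 3 for CR20 averaged over diets in eWAT, 0 to 2 for HFD averaged over dams in liver, 0 to 1 in CR20-CTRL compared with FED-CTRL pituitary, 0 to 1 for HFD averaged over dams in the pituitary, and 0 to 1 in both comparisons of the liver and eWAT responses. In the other comparisons within a tissue it did not move, and no mouse was left out of the comparisons between tissues.

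Over all genes, calls in FED-HFD compared with FED-CTRL eWAT numbered 1680 by edgeR and 3291 by voom. For HFD averaged over dams in eWAT they numbered 40, against 1104 by voom and 553 by DESeq2, and in the eWAT interaction 365, against 144, 824 and 0 without the 5 libraries. For CR20 averaged over diets in eWAT they numbered 1066, against 2183 by voom and 1801 by DESeq2. In liver, HFD averaged over dams gave 240, against 895 by voom and 461 by DESeq2. In the pituitary, HFD averaged over dams gave 4, against 35 by DESeq2, 39 with no filter and 1 by voom. The background shares printed above therefore depend on the tool. Genes at few counts, such as Acot1 and Bdh1 in eWAT, are limited by depth and by single mice.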
